A study of Mus musculus with 2 samples.

Results

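The 37 genes of the mouse mitochondrial genome were followed in 2 long-read RNA libraries of adrenal gland. Members were the transcript models whose annotated gene name begins with mt-, together with the models on the mitochondrial chromosome that the authors placed outside annotated genes. The 37 genes are 13 protein-coding, 2 rRNA and 22 tRNA genes, set against 18168 annotated genes detected in either library. Members made up 19 of 140263 models in replicate 2 and 12 of 104489 models in replicate 1, with 11 and 8 further models outside annotated genes in those libraries. All 37 genes had the same start, end and strand in the deposited annotation as in GENCODE M21, and coordinates below are on the M chromosome of mm10.

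The animals were male mice of the hybrid strain B6CASTF1/J aged 25 days, and both libraries belong to 1 group, so no condition was compared with another. Only the label of replicate 2 states an RNA input, which was 1 µg. The labels conflict on whether these are separate animals, since they give 1 animal at the library level and 2 at the tissue level under a shared donor record, so the spread between the libraries may be technical.

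Mitochondrial DNA is transcribed by its own polymerase from both strands into long precursors that run across many genes. Most mRNAs and rRNAs lie between tRNAs, and cutting at those tRNAs releases them. The mRNAs are then given short poly(A) tails, several genes lack a complete stop codon until that tail is added, and the proteins made are core subunits of respiratory complexes I, III, IV and V. In the adrenal cortex mitochondria also house the enzymes that open and close steroid hormone synthesis.

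Replicate 2 held 1210671 reads in annotated genes and replicate 1 held 752432, and levels below are in CPM, the count scaled to 1000000 such reads. The limit of 3 reads behind a count of 0 corresponds to 2.48 CPM in replicate 2, against 3.99 CPM in replicate 1. The 6 adrenal cortex markers, led by Cyp11a1, summed to 24752 CPM in replicate 2, against 60920 CPM in replicate 1, and all were present in both. However, 8 liver genes summed to 39908 CPM in replicate 2, against 140 CPM in replicate 1, where 6 of the 8 were at 0 reads. The 12 skeletal muscle genes summed to 5.78 CPM in replicate 2, where 10 of the 12 were at 0, and 4322 CPM in replicate 1. In bulk tissue, fewer cells of a type and less RNA per cell cannot be told apart. All intervals are 95% Clopper-Pearson intervals and, like the standard errors, the p-values and the limits for 0, cover counting error only.

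The mitochondrial mRNA ends show what the libraries had to read. Of the 13 protein-coding genes, 10 carry a whole stop codon in the DNA and 3 end in a lone T. Among the 10, mt-Nd1 and mt-Nd2 share their last 2 bases, part of the stop codon, with the tRNA genes mt-Ti and mt-Tw. The 3 with a lone T, all detected in both libraries, are shown with the most abundant mRNA, which ends in a whole codon. Each line gives the last 21 bases of the gene, 5′ to 3′ in the GENCODE M21 transcript, with the encoded letters of the stop codon in capitals.
mt-Co1, plus strand, chrM:6852-6872: acctatgtaaaagtaaaaTAA
mt-Co3, plus strand, chrM:9370-9390: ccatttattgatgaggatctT
mt-Nd4, plus strand, chrM:11524-11544: taattacaggcctgacaataT
mt-Cytb, plus strand, chrM:15268-15288: aaatactaaaattatatccaT

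The genes are also packed to the point of overlap. mt-Atp8 and mt-Atp6 share 43 bases on the plus strand, and mt-Nd4l and mt-Nd4 share 7, and the tables count each gene of a pair separately. How a read across both genes of a pair was counted was not given in the sources used here. The overlaps are printed in capitals with 30 bases on each side.
mt-Atp8 and mt-Atp6, plus strand, chrM:7897-7999: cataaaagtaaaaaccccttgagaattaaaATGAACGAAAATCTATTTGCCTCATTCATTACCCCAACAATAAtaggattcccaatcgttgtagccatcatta
mt-Nd4l and mt-Nd4, plus strand, chrM:10137-10203: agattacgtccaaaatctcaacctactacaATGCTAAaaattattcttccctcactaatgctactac

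The 13 mRNAs follow the skew of their strand. The 12 plus-strand coding genes had a median G content of 11.02% (range 5.88% to 16.1%), whereas mt-Nd6, the only coding gene of the minus strand, had 28.1% G and 43.7% T.

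Mitochondrial genes took a small share of these libraries. They held 995 reads in replicate 2 and 825 in replicate 1, which is 0.0822% and 0.110% of gene reads in those libraries. Their summed level was 822 CPM (772 to 875) in replicate 2 and 1096 CPM (1023 to 1174) in replicate 1, a mean of 959 ± 194 CPM (SD, n = 2). The order turned round when mt-Co1 was left out, since the other 36 genes summed to 581 CPM in replicate 2, against 489 CPM in replicate 1. Leaving out the rRNAs instead widened the gap, with 567 CPM in replicate 2, against 1049 CPM in replicate 1. Of the 37 genes, 12 were detected in both libraries, 7 in replicate 2 alone and 18 in neither.

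**Figure D1:**
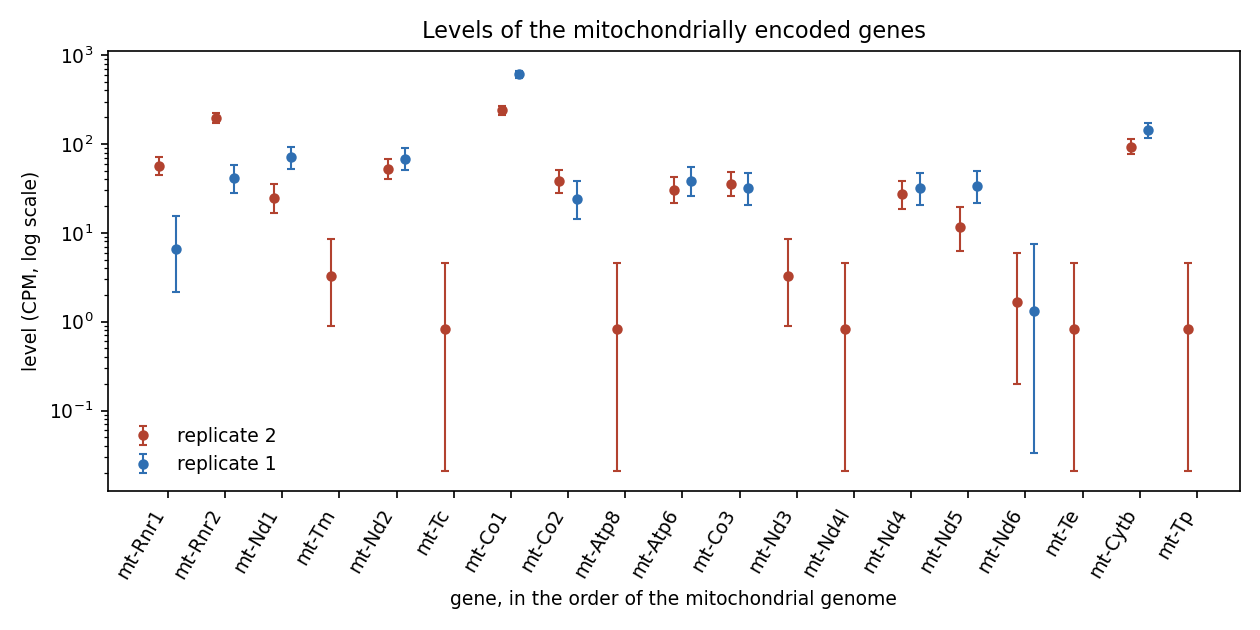
Level of each detected mitochondrial gene in CPM on a log axis, in genome order, for replicate 2 (red) and replicate 1 (blue), with 95% Clopper-Pearson intervals of counting error; libraries with 0 reads have no point. mt-Co1 was the highest in both libraries at 241 CPM in replicate 2, against 607 CPM in replicate 1, and mt-Nd6 and the tRNA genes lay below 4 CPM.

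Between the libraries, 11 members had at least 10 reads in both together and were tested with a two-sided Fisher's exact test that set reads of the gene against all other gene reads, with Benjamini-Hochberg adjustment over 11382 genes and a threshold of 0.05. The test compares 2 libraries, not conditions. Of the 11, 2 were higher and 4 lower in replicate 2, and 5 were not called. Over all genes tested 36.8% were called, 11.5% as higher and 25.3% as lower, and the median log2 ratio was -0.34 both for the 11 members and for all genes. With TMM factors the split of the members was 3 higher and 3 lower, beside 2015 higher and 1563 lower of all 11382 genes. With DESeq2 size factors it was 3 higher and 2 lower, beside 2193 and 1387 of all genes. These scalings place no change at log2 ratios of -0.35 and -0.40. The test left out the 8 detected members with fewer reads.

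**Figure D2:**
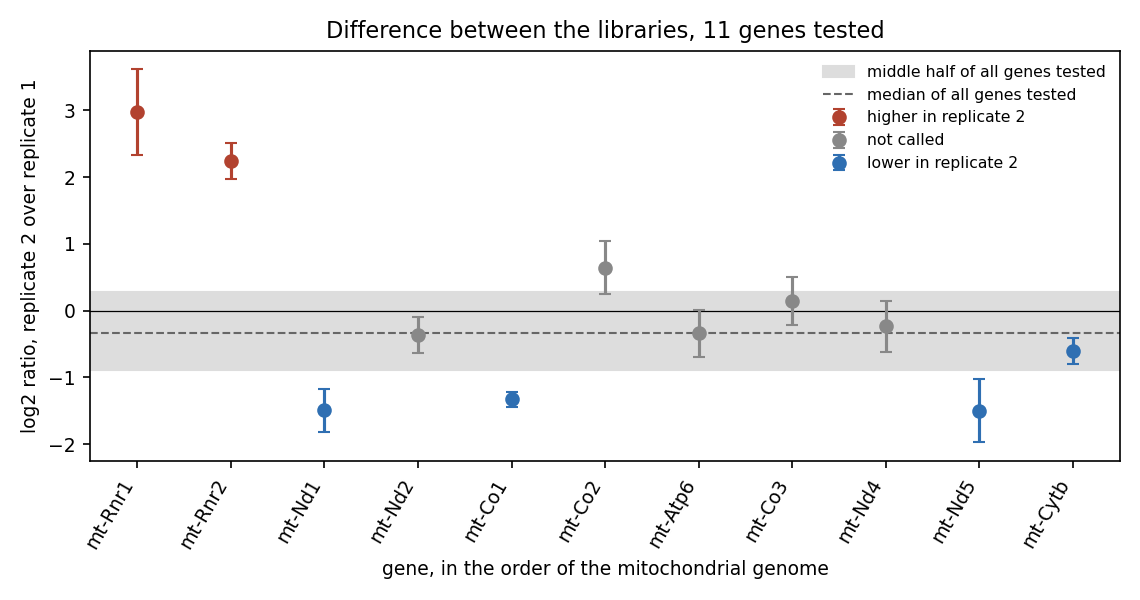
Log2 ratio of replicate 2 over replicate 1 for the 11 tested genes in genome order, with counting standard errors. The grey band spans the quartiles of all 11382 genes tested, -0.88 to 0.28, and the dashed line is their median of -0.34; both rRNA genes and mt-Co2, which was not called, lie above the band, and mt-Nd1, mt-Co1 and mt-Nd5 below it.

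The rRNAs stood apart from the mRNAs. mt-Rnr2, the 16S rRNA of the large mitochondrial ribosomal subunit (1094 to 2675, plus strand), had 239 reads in replicate 2, against 31 in replicate 1, or 197 and 41.2 CPM in those libraries. Its level was 4.79-fold higher in replicate 2, a log2 ratio of 2.24 ± 0.27 (SE) with an adjusted p of 2.12e-21 by Fisher's exact test. mt-Rnr1, the 12S rRNA of the small subunit (70 to 1024, plus strand), had 69 reads in replicate 2, against 5 in replicate 1, a log2 ratio of 2.97 ± 0.64 with an adjusted p of 9.31e-09. Both were called higher in replicate 2 under each of 12 other settings. Together the rRNAs took 31.0% of mitochondrial reads (28.1% to 33.9%) in replicate 2 and 4.36% (3.07% to 5.99%) in replicate 1.

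Within each library the 16S rRNA had more reads than the 12S rRNA, at a ratio of 3.46 (2.64 to 4.60) in replicate 2 and 6.20 (2.39 to 20.4) in replicate 1. These intervals overlap. The ratio of rRNA reads to protein-coding reads was 0.453 (0.395 to 0.519) in replicate 2 and 0.0456 (0.0317 to 0.0637) in replicate 1, intervals that do not overlap. The liver genes were high in the same library as the rRNAs, and their part in this difference was not tested. The rRNA ends follow, 40 bases of each, to show where models of these genes begin and stop.
mt-Rnr1 first bases, plus strand, chrM:70-109: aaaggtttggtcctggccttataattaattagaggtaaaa
mt-Rnr1 last bases, plus strand, chrM:985-1024: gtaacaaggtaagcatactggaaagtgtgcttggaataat
mt-Rnr2 first bases, plus strand, chrM:1094-1133: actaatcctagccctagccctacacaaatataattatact
mt-Rnr2 last bases, plus strand, chrM:2636-2675: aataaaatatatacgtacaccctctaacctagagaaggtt

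**Figure D3:**
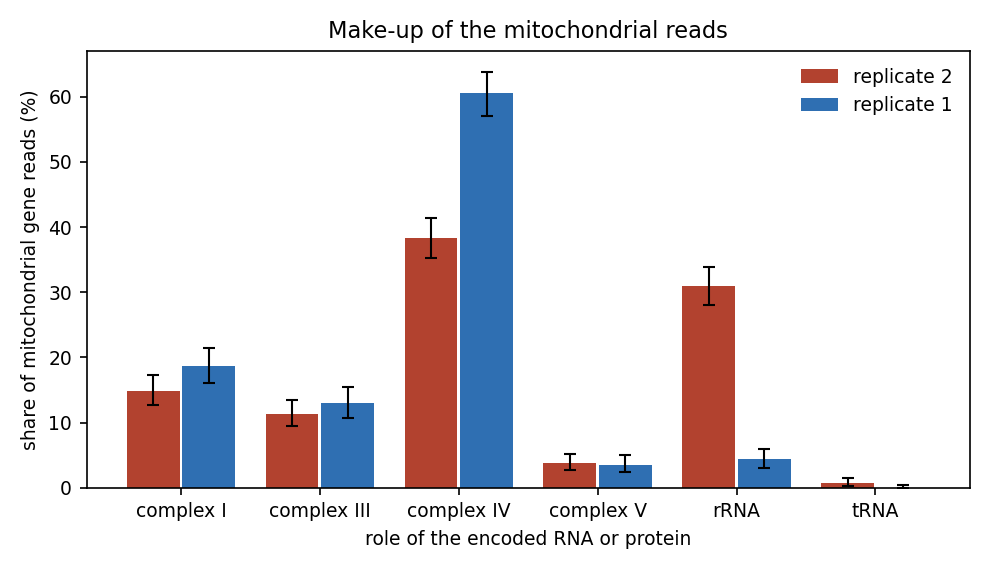
Share of mitochondrial gene reads (percent) by role, for replicate 2 (red) and replicate 1 (blue), with 95% Clopper-Pearson intervals. Complex IV took 38.3% in replicate 2 and 60.5% in replicate 1, and rRNA 31.0% and 4.36% in those libraries.

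Complex IV, cytochrome c oxidase, was the largest group of mRNAs. Its 3 mitochondrial subunits took 381 reads in replicate 2 and 499 in replicate 1, or 315 and 663 CPM. mt-Co1, the catalytic subunit that holds the haem groups and a copper (5328 to 6872, plus strand), had 292 reads in replicate 2, against 457 in replicate 1, or 241 and 607 CPM. It was lower in replicate 2 by a log2 ratio of -1.33 ± 0.11 (adjusted p = 2.13e-34, Fisher's exact test), and remained lower under each of 13 other settings. Among all detected genes mt-Co1 ranked 677 of 16852 in replicate 2 and 196 of 15242 in replicate 1. Several markers of adrenal cortex, chromaffin cells, muscle and brown fat were lower in replicate 2 as well, as were 25.3% of all genes tested. The adrenal cortex gene Cyp11a1 had a log2 ratio of -1.14 ± 0.02, Star -1.05 ± 0.03 and Cyp21a1 -1.65 ± 0.02, and the muscle sum was lower too. Of the 6 cortex genes 5 were lower, and Mc2r, at 0.46 ± 0.31, was not called. All 6 chromaffin genes were lower, at a sum of 7816 CPM in replicate 2, against 11505 CPM in replicate 1. Their median log2 ratio was -0.66, though Chga, at -0.14 ± 0.04, lay above the median of all genes. The 7 brown fat genes summed to 2359 CPM in replicate 2, against 3316 CPM in replicate 1. Of these 7, 3 were lower, 3 were not called and Elovl3 was higher in replicate 2, at a log2 ratio of 1.87 ± 0.23. The median of the 7 was -0.26, against -0.34 over all genes tested. Cidea, called lower at -0.27 ± 0.08, was above that median too. Brown fat genes as a set were thus not shown to be lower than other genes. The part of these cell types in the mt-Co1 difference was not tested.

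The other 2 subunits did not follow mt-Co1. mt-Co2, which binds cytochrome c and carries the CuA centre (7013 to 7696), had 46 reads in replicate 2, against 18 in replicate 1, a log2 ratio of 0.64 ± 0.40 with an adjusted p of 0.190 by Fisher's exact test. With TMM factors its log2 ratio was 0.99 (adjusted p = 0.0380) and with DESeq2 size factors 1.05 (adjusted p = 0.0280), so its call depended on the scaling. mt-Co3, a core subunit next to mt-Co1 in the enzyme (8607 to 9390), had 43 reads in replicate 2, against 24 in replicate 1, a log2 ratio of 0.14 ± 0.36 (adjusted p = 0.823). The ratio of mt-Co1 to mt-Co2 reads was 6.35 (4.64 to 8.86) in replicate 2 and 25.4 (15.9 to 43.2) in replicate 1.

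Complex I, the NADH dehydrogenase, has 7 mitochondrial subunits, and they took 148 reads in replicate 2 and 154 in replicate 1, or 122 and 205 CPM. Of the 4 tested, 2 were lower and none was higher in replicate 2. mt-Nd1, a membrane subunit next to the quinone site (2751 to 3707), had 30 reads in replicate 2, against 53 in replicate 1, a log2 ratio of -1.50 ± 0.33 with an adjusted p of 2.69e-05 by Fisher's exact test. mt-Nd5, a proton-pumping subunit at the far end of the membrane arm (11742 to 13565), had 14 reads in replicate 2, against 25 in replicate 1, a log2 ratio of -1.50 ± 0.47 (adjusted p = 0.00552). That call was lost with DESeq2 size factors, at a log2 ratio of -1.10 and an adjusted p of 0.0683. The pumping subunits mt-Nd2 (64 reads in replicate 2, 51 in replicate 1) and mt-Nd4 (33 and 24 reads) had log2 ratios of -0.36 ± 0.27 and -0.23 ± 0.38 and were not called, with adjusted p of 0.350 and 0.723.

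The 3 remaining complex I genes had counts near the limit of detection. mt-Nd3 had 4 reads and mt-Nd4l 1 read in replicate 2, and neither had a read in replicate 1. Reads across mt-Nd4l and mt-Nd4 may have been counted for mt-Nd4 alone, so the mt-Nd4l count need not give its RNA level. mt-Nd6 (13552 to 14070, minus strand) had 2 reads in replicate 2, against 1 in replicate 1. Its last 14 bases lie opposite the end of mt-Nd5. The counts keep models of opposite strands apart, but how reads were given a strand was not stated in the sources used here.

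Complex III has 1 mitochondrial subunit, mt-Cytb, the cytochrome b that oxidises ubiquinol (14145 to 15288). It had 113 reads in replicate 2, against 107 in replicate 1, or 93.3 and 142 CPM. The log2 ratio was -0.61 ± 0.19 with an adjusted p of 0.00811 by Fisher's exact test. With TMM factors the log2 ratio was -0.26 and the adjusted p 0.363, and with DESeq2 size factors -0.20 and 0.498, so the call did not hold under either scaling.

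Complex V, the ATP synthase, had almost all its counted reads in mt-Atp6, which forms the proton path beside the rotor ring (7927 to 8607). It had 37 reads in replicate 2, against 29 in replicate 1, a log2 ratio of -0.34 ± 0.36 (adjusted p = 0.535, Fisher's exact test). mt-Atp8, whose end overlaps the start of mt-Atp6 in the sequence printed above, had 1 read in replicate 2 and none in replicate 1. Reads across both genes may have been counted for mt-Atp6 alone, so the mt-Atp8 count need not give its RNA level.

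Per length, the order of the genes differed between the libraries. In CPM per kilobase of gene, replicate 2 was led by mt-Co1 at 156, then mt-Rnr2 with 125, mt-Cytb with 81.6 and mt-Rnr1 with 59.7, and replicate 1 by mt-Co1 at 393, mt-Cytb at 124, mt-Nd1 at 73.6 and mt-Nd2 at 65.3. mt-Nd5 had 6.34 CPM per kilobase in replicate 2 and 18.2 in replicate 1, the lowest of the 11 tested genes in replicate 2. In replicate 1 mt-Rnr1 was lowest of these, at 6.96. This order leaves out reads placed in the near-identical nuclear copies described below. With those added, mt-Co2, mt-Atp6 and mt-Co3 had 76.8, 75.2 and 81.8 CPM in replicate 2. Per length they would then rank above mt-Cytb and mt-Rnr1. In replicate 1 mt-Atp6, at 82.4 CPM with its copy, would rank above mt-Nd1 and mt-Nd2. The order thus depends on where reads shared with the copies were placed. The ratio of mt-Cytb to mt-Nd2 reads was 1.77 (1.29 to 2.44) in replicate 2 and 2.10 (1.49 to 2.99) in replicate 1, so these 2 genes kept their order with overlapping intervals.

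The tRNA genes gave 7 reads in replicate 2 and none in replicate 1. mt-Tm, the methionine tRNA (3845 to 3913, plus strand), had 4 reads, and mt-Tc, mt-Te and mt-Tp, the cysteine, glutamate and proline tRNAs of the minus strand, had 1 read each. A share of up to 0.446% of mitochondrial reads is within the interval of the 0 in replicate 1, against 0.704% (0.283% to 1.44%) in replicate 2. No read was found in either library for mt-Tf, mt-Tv, mt-Tl1, mt-Ti, mt-Tq, mt-Tw, mt-Ta, mt-Tn, mt-Ty, mt-Ts1, mt-Td, mt-Tk, mt-Tg, mt-Tr, mt-Th, mt-Ts2, mt-Tl2 or mt-Tt. The most read tRNA, mt-Tm, lies directly before mt-Nd2 and is given here whole.
mt-Tm, plus strand, chrM:3845-3913: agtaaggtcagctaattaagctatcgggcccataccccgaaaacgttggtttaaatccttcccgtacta

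Near-identical copies in the nuclear genome held as many reads as several members. A search of GENCODE M21 transcripts for matches to mitochondrial genes of at least 60 bases and 90% identity found 18 nuclear genes, of which 8 had reads, 205 in replicate 2 and 109 in replicate 1. Of these reads, 200 in replicate 2 and 104 in replicate 1 lay in 7 pseudogenes in a row within 4663 bases of chromosome 1 (24611535 to 24616197, minus strand of mm10). They copy, in the same order, the stretch of the mitochondrial genome from mt-Co1 to mt-Nd4. These copies are named here after their values were seen.

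Gm28661 matched mt-Co2 without a mismatch over 681 of its 684 bases and had 47 reads in replicate 2, against 20 in replicate 1, against 46 and 18 of mt-Co2 in those libraries. Gm10925 matched mt-Atp6 over 678 of 681 bases and had 54 reads in replicate 2, against 33 in replicate 1, against 37 and 29 of mt-Atp6. Gm28437 matched mt-Co3 over 783 of 784 bases and had 56 reads in replicate 2, against 25 in replicate 1, against 43 and 24 of mt-Co3. In all 3 cases the alignment was at 100% identity, so the letters of a read within the aligned part do not tell the gene from its copy. The mitochondrial gene held 49.5% (38.9% to 60.03%) of the reads of mt-Co2 and its copy in replicate 2 and 47.4% (31.0% to 64.2%) in replicate 1. For mt-Atp6 the share was 40.7% in replicate 2 and 46.8% in replicate 1, and for mt-Co3 43.4% and 49.0%. The opening of mt-Co2 and of its copy shows the match.
mt-Co2, plus strand, chrM:7013-7072: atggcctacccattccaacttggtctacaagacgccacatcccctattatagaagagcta
Gm28661, minus strand, chr1:24615506-24615565: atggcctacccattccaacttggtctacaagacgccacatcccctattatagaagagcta

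Gm29216, which aligns to only 483 of the 1545 bases of mt-Co1 at 99.8% identity, had 39 reads in replicate 2, against 26 in replicate 1, so mt-Co1 held 88.2% of the reads of both in replicate 2 and 94.6% in replicate 1. Gm28438, the copy of mt-Nd3, had 3 reads in replicate 2 and none in replicate 1. Gm28439, which copies 876 of the 1378 bases of mt-Nd4, had 1 read in replicate 2 and none in replicate 1, and Gm10222, the copy of mt-Nd4l, had no read. The deposited levels of mt-Co2, mt-Atp6 and mt-Co3 are therefore uncertain. With the reads of the copies added, an alternative chosen after seeing the data, their mean levels were 63.7, 78.8 and 73.4 CPM in place of 31.0, 34.6 and 33.7 CPM.

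Adding the copies left 2 members higher and 4 lower in replicate 2. The log2 ratios then were -1.23 for mt-Co1 (adjusted p = 4.26e-32, Fisher's exact test), 0.59 for mt-Co2 (adjusted p = 0.0767), -0.14 for mt-Atp6 (adjusted p = 0.750) and 0.32 for mt-Co3 (adjusted p = 0.340). The rRNA genes, mt-Nd1 and mt-Cytb are outside the copied stretch on chromosome 1, and the matches found elsewhere had few reads. Gm13340, which matches mt-Co1 at 97.6% over 1545 bases, had 2 reads in each library, and Cep295, which holds a 71-base match to mt-Tn, had 3 in each.

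**Figure D4:**
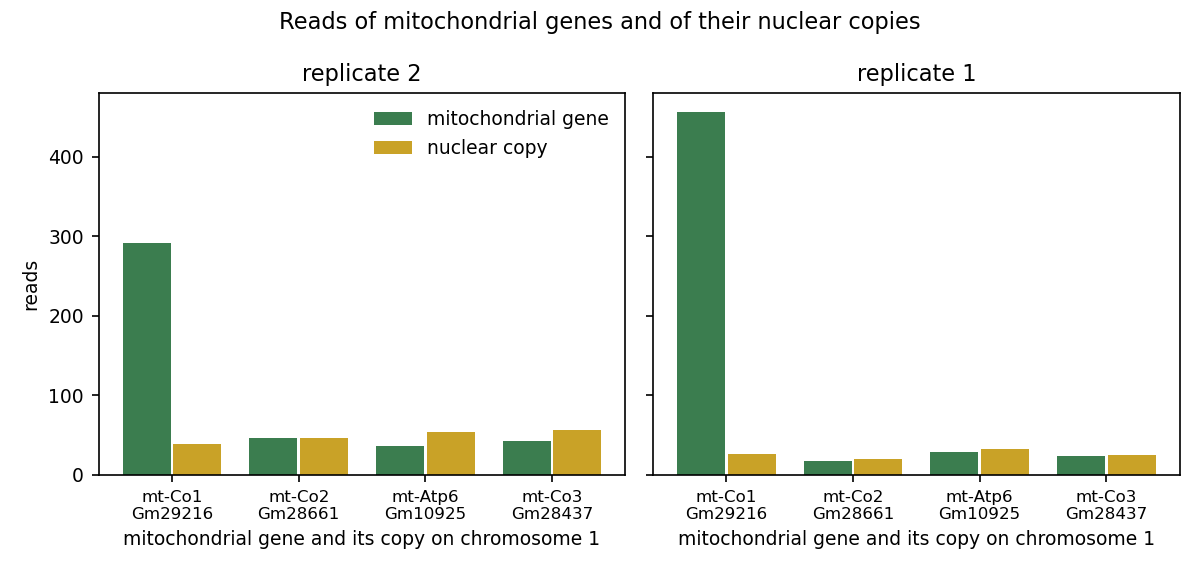
Reads of 4 mitochondrial genes (green) and of their near-identical copies on chromosome 1 (yellow), replicate 2 on the left and replicate 1 on the right. The copy of mt-Co2 had 47 reads in replicate 2, against 20 in replicate 1, against 46 and 18 for mt-Co2 itself, whereas the copy of mt-Co1 had 39 and 26 against 292 and 457.

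Every read of the mt- genes lay in a known model, that is, a transcript of the annotation. This held for 995 of 995 reads in replicate 2 and 825 of 825 in replicate 1, against 75.6% and 77.0% of the reads of other genes in those libraries (adjusted p = 1.37e-120 in replicate 2 and 1.07e-93 in replicate 1, Fisher's exact test). None was an incomplete splice match, a new combination of splice sites or a genomic model. These genes have no introns, so classes based on splice sites were largely closed to them in advance. Reads of the antisense models described below are also outside this count. The difference from all other genes was thus largely set by the annotation and the choice of members. Genes whose annotation is a single transcript of a single exon had 98.2% known reads in replicate 2 and 98.6% in replicate 1, a comparison added after seeing the data, and the mitochondrial share was still higher (adjusted p = 5.74e-07 and 9.13e-05, Fisher's exact test). The ends of a known model are those of the annotation, so the files do not give the ends of the single reads, and a shortened or unprocessed molecule assigned to a gene cannot be seen in them.

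The tests above treat reads as independent, though the mitochondrial reads come from few genes. Counted by gene, the difference from other single-exon genes was not called. Of members with at least 20 reads, 0 of 10 in replicate 2 and 0 of 9 in replicate 1 had a model outside the known class, against 7114 of 7395 other genes (96.2%) in replicate 2 and 6010 of 6281 (95.7%) in replicate 1. Among genes with 1 annotated single-exon transcript the counts were 27 of 207 (13.0%) in replicate 2 and 19 of 157 (12.1%) in replicate 1, with an adjusted p of 0.617 in both libraries by Fisher's exact test.

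**Figure D5:**
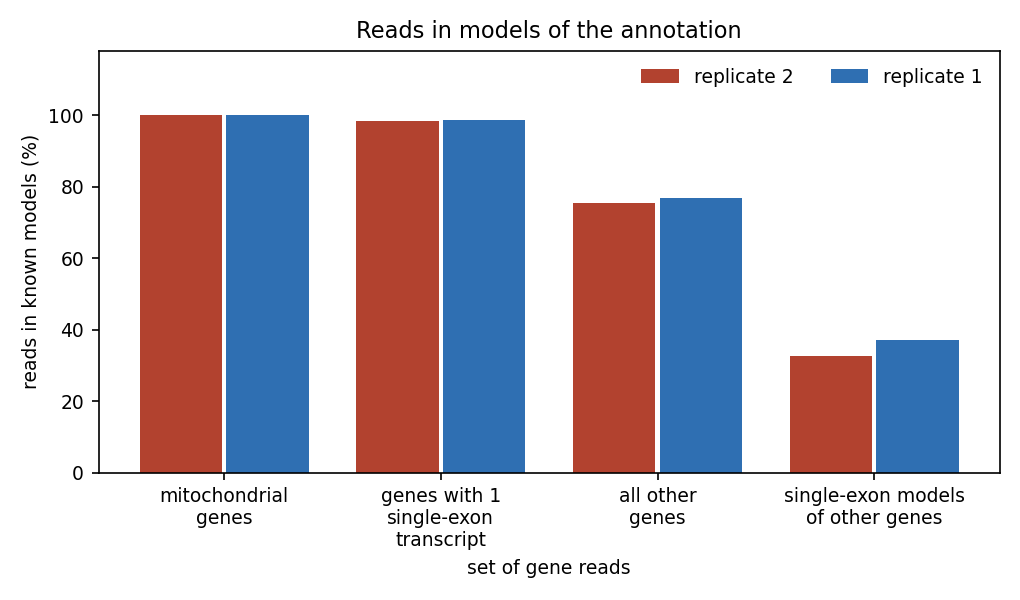
Percent of reads in known models for mitochondrial genes, for genes with 1 annotated single-exon transcript, for all other genes and for single-exon models of other genes, in replicate 2 (red) and replicate 1 (blue). Mitochondrial genes were at 100% in both libraries, and single-exon models of other genes at 32.6% in replicate 2 and 37.01% in replicate 1. That last set includes single-exon models of genes with introns, so its low share was largely set by how the classes are defined. Genes with 1 annotated single-exon transcript were at 98.2% in replicate 2 and 98.6% in replicate 1.

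Models outside the annotated genes of the mitochondrial chromosome were few and all of the antisense class, with no genomic and no intergenic model. Replicate 2 had 11 with 60 reads and replicate 1 had 8 with 18 reads, all of 1 exon. They took 5.69% of the reads on this chromosome (4.37% to 7.26%) in replicate 2 and 2.14% (1.27% to 3.35%) in replicate 1, with an adjusted p of 2.96e-04 by Fisher's exact test. That test treats reads as independent and compares 2 libraries, so its p covers counting error only, and 26 of the 60 reads in replicate 2 were in a single model. The class is the label the authors gave. In each library 1 model so labelled lay opposite no annotated gene, and 1 lay over such a gene by 1 base. The model with no gene opposite had 11 of the 60 reads in replicate 2 and 5 of the 18 in replicate 1. On the other chromosomes antisense models took 4.41% of reads in replicate 2 and 3.43% in replicate 1, and neither library's mitochondrial share differed from these at the threshold (adjusted p = 0.0507 in both).

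In replicate 2 the model with the most reads lay opposite the rRNAs. It ran from 1 to 2675 on the minus strand, opposite mt-Tf, mt-Rnr1, mt-Tv and mt-Rnr2, and had 26 reads in replicate 2. Replicate 1 had a shorter model there, from 2005 to 2675, with 1 read. Reads opposite mt-Rnr2 were 9.81% of those on both strands (6.51% to 14.0%) in replicate 2 and 3.13% (0.0791% to 16.2%) in replicate 1, intervals that overlap.

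The model with the most reads in replicate 1, and the next most in replicate 2, lay in the stretch beyond mt-Tp, which holds the control region with the promoters and an origin of replication. This minus-strand model ran from 15422 to 16181 with 11 reads in replicate 2 and from 15422 to 16103 with 5 reads in replicate 1. Plus-strand models of the same ends had 3 reads in replicate 2, against 2 in replicate 1. The minus strand thus took 11 of 14 reads in replicate 2 (49.2% to 95.3%) and 5 of 7 in replicate 1 (29.0% to 96.3%). Both intervals include an even split between the strands.

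Counting all models on the chromosome, 4.83% of reads (3.62% to 6.31%) were on the minus strand in replicate 2 and 1.30% (0.653% to 2.32%) in replicate 1. Among mt- genes alone, of which 9 of 37 are on that strand, the share was 0.503% in replicate 2 and 0.121% in replicate 1. A further minus-strand model shared its 3′ end between the libraries, at 8607, the border of mt-Atp6 and mt-Co3. It reached 10919 with 4 reads in replicate 2 and 11742 with 3 reads in replicate 1.

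Ends of these models fell exactly on borders of annotated genes in 18 of 22 cases (81.8%) in replicate 2 and 12 of 16 (75%) in replicate 1. For single-exon antisense models of other chromosomes the shares were 25.9% and 24.7% in those libraries. Allowing 50 bases on either side left the mitochondrial counts at 18 and 12. Whether processing moved ends to annotated borders was not given in the sources used here. The closer spacing of borders on this chromosome was not allowed for. These shares and the ends that models have in common therefore do not show where RNA molecules end. Of the 11 models of replicate 2 and the 8 of replicate 1, 1 had both ends within 20 bases of a model in the other library, and 5 in each library matched by the 3′ end alone. The model with both ends in common lay exactly opposite mt-Tp and had 2 reads in each library. It is printed with mt-Tp, its reverse complement.
opposite mt-Tp, plus strand, chrM:15356-15422: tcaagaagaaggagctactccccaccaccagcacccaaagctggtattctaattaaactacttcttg
mt-Tp, minus strand, chrM:15356-15422: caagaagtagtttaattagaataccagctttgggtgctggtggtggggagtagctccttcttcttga

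Nuclear genes that copy, transcribe and process mitochondrial RNA were mostly not called between the libraries. Of 40 listed symbols 39 were found in the tables and 36 were tested, of which 1 was higher and 9 lower in replicate 2 and 26 were not called, a share of 27.8% beside 36.8% of all genes. Their median log2 ratio was -0.40 against -0.34 over all genes. With TMM factors the split was 4 higher and 4 lower, beside 2015 and 1563 of all 11382 genes. With DESeq2 size factors it was 5 and 4, beside 2193 and 1387 of all genes. Their summed level was 1849 CPM in replicate 2, against 2477 CPM in replicate 1.

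By mean CPM over the libraries the 5 most abundant were Fastk, Lrpprc, Grsf1, Rexo2 and Elac2, a set that was the top 5 in neither library. Hsd17b10, named like Ssbp1 after its values were seen, had 126 CPM in replicate 2, above Grsf1, Fastk and Elac2. Ssbp1 had 145 CPM in replicate 1, above Grsf1, Lrpprc and Rexo2. Fastk, whose mitochondrial form is needed for mt-Nd6 mRNA, had 108 CPM in replicate 2, against 253 CPM in replicate 1, a log2 ratio of -1.22 ± 0.16 (adjusted p = 8.61e-13, Fisher's exact test). Elac2, the nuclease that cuts the 3′ ends of tRNAs out of the precursor, had 72.7 CPM in replicate 2, against 162 CPM in replicate 1, a log2 ratio of -1.16 ± 0.20 (adjusted p = 8.66e-08). Lrpprc, which stabilises mitochondrial mRNAs and aids their polyadenylation, had 147 CPM in replicate 2, against 140 CPM in replicate 1 and was not called (adjusted p = 0.828). With DESeq2 size factors Lrpprc was called higher in replicate 2, at a log2 ratio of 0.48 and an adjusted p of 0.0258. Grsf1, an RNA-binding protein of mitochondrial RNA granules, had 113 and 141 CPM in those libraries, and Rexo2, an exonuclease that degrades the shortest RNA fragments, had 135 and 116 CPM. Neither was called, though Rexo2 was called higher in replicate 2 with TMM factors, at a log2 ratio of 0.56 and an adjusted p of 0.0116.

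Of the other genes called with a log2 ratio of at least 1 in size, Tfb2m, the factor with which the polymerase opens promoters, had 23.1 CPM in replicate 2, against 57.1 CPM in replicate 1 (log2 ratio -1.30 ± 0.35, adjusted p = 9.65e-04, Fisher's exact test). Mterf3, a negative regulator of mitochondrial transcription, had a log2 ratio of -1.10 ± 0.33 (adjusted p = 0.00377), and its call was lost with TMM factors (-0.75, adjusted p = 0.0809). Fastkd2, which acts on the 16S rRNA, had a log2 ratio of -1.25 ± 0.33 (adjusted p = 7.60e-04). Fastkd5, needed for mRNA ends that no tRNA marks, had 16 reads in replicate 2, against 2 in replicate 1, a log2 ratio of 2.04 ± 0.98 (adjusted p = 0.0435), a call held under 4 of 10 other settings. Polrmt, the polymerase itself, named after its values were seen, had 64.4 CPM in replicate 2, against 69.1 CPM in replicate 1 and was not called (adjusted p = 0.832).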

How the data were processed

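The authors deposited, for each library, read counts per transcript model, not normalised, and a transcript annotation. The genome build (mm10) and gene set (GENCODE M21) are named per the file headers, whose attribute names are those of TALON. The aligner, tool versions and handling of strand and PCR copies were not given in the sources used here. Model counts were summed per gene, and CPM was taken over reads in annotated mouse genes, leaving out spike-ins (1.33% of reads in replicate 2, 1.39% in replicate 1) and loci outside annotated genes. Genes reaching 10 reads over the libraries combined were compared by Fisher's exact test (two-sided, scipy 1.17.1) with Benjamini-Hochberg adjustment, since edgeR's quasi-likelihood test needs replicates on each side. Log2 ratios of replicate 2 over replicate 1 used a prior of 0.5 reads. The test was checked on simulated counts. Nuclear copies were searched with BLAST 2.17.0. Scaling alternatives used edgeR 4.0.16 and DESeq2 1.42.0. Every mitochondrial gene with a read is named; of the nuclear list, the 5 highest by mean CPM and every called gene with a log2 ratio of at least 1 in size. Members and lists were chosen with earlier results of these data known. Sequences are from GENCODE M21 transcripts (mm10).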

Additional observations from a re-analysis of the deposited data

How the results depend on the processing

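Calls were repeated under other scalings, read minimums and model classes, with the deeper library thinned and with edgeR's exact test at an assumed coefficient of variation of 0.2. Under that last setting 1 nuclear gene of mitochondrial RNA processing was called in place of 10, and 1523 genes in all in place of 4183; members called ranged from 4 to 6 over the settings. With known models alone the mitochondrial sum was 1256 CPM in place of 959. With the antisense models counted in, 96.1% of mitochondrial reads were in known models in place of 100%, and mt- genes alone put 0.312% of reads on the minus strand in place of 3.07%. Matching by the 3′ end alone gave 5 shared models in place of 1. Leaving out a library gave sums of 822 to 1096 CPM and minus-strand shares of 1.30% to 4.83%. Of 137 gene and setting pairs of members, 119 kept direction and call. Small ratios that were not called changed sign: with TMM factors mt-Atp6 was 0.0084, mt-Nd4 0.11 and Grsf1 0.031; with DESeq2 size factors mt-Nd2 was 0.043, mt-Atp6 0.064, mt-Nd4 0.17 and Grsf1 0.087; without genes over 10-fold different in the total mt-Atp6 was 0.017, mt-Nd4 0.12 and Grsf1 0.040; in the thinned library mt-Atp6 was 0.048; and Lrpprc was -0.30 with known models alone and -0.030 without incomplete splice matches. mt-Cytb was called under 7 of 12 settings and mt-Nd5 under 10 of 12. Model ends could not be recomputed without known models, since none remained. No paired analysis was possible because the 2 libraries form 1 group. The sum with known models alone rose because every mitochondrial read stayed while the total of gene reads fell. Each change of total or scaling factor moved all log2 ratios by an equal amount. The known and minus-strand shares changed with the models that were counted. The cause of the other changes was not tested. The tRNA, mt-Nd3, mt-Nd4l, mt-Nd6 and mt-Atp8 values rest on 4 reads or fewer for each gene and library. Why these counts were low was not tested.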
